A study of Mus musculus with 20 samples.

Results

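The prostaglandin genes described here are 9 genes of prostaglandin synthesis, breakdown and reception, taken by gene name from a table of read counts for 29986 mouse genes. They are the cyclooxygenases Ptgs1 and Ptgs2, the prostaglandin E synthases Ptges, Ptges2 and Ptges3, the prostacyclin synthase Ptgis, the prostaglandin dehydrogenase Hpgd, and the prostaglandin E2 receptors Ptger2 and Ptger4. All 9 were found in the table, and all 9 were among the 14420 genes that passed the filter on low counts. The cells were tenocytes, fibroblasts of tendon, obtained from tail tendons of adult wild-type mice of the strain C57Bl/6. The 0 h group had no cytokine, and the other groups had recombinant insulin-like growth factor 1 (IGF1) at 100 ng/mL for 1, 2, 6 or 24 h, with 4 libraries per group. Cultures without IGF1 at 1, 2, 6 or 24 h were not analysed here, so the length of treatment and the time in culture cannot be told apart. The labels do not tie the libraries to mice or cultures, so the spread behind the p-values may be technical.

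Prostaglandins are lipid signals made from arachidonic acid, which phospholipases release from membranes. A cyclooxygenase, COX-1 (Ptgs1) or COX-2 (Ptgs2), turns it into prostaglandin H2, and a terminal synthase then makes prostaglandin E2 (Ptges, Ptges2, Ptges3) or prostacyclin (Ptgis). Hpgd begins the breakdown of prostaglandin E2, and the receptors EP2 (Ptger2) and EP4 (Ptger4) pass its signal on through cyclic AMP. In tendon, prostaglandin E2 is known as a mediator that fibroblasts release on loading and in inflammation. Ptgs1 is usually described as the steady form and Ptgs2 as the form induced by growth factors and cytokines, with a short-lived messenger RNA.

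The promoters of 8 of the 9 genes were matched in RefSeq (build GRCm38.p6, the mm10 assembly), as windows of 250 bases before to 50 bases after the annotated start. The 3 shown are those of the cyclooxygenase pair, whose transcripts had different time courses, and of Ptges, the synthase with the largest rise. Each line runs 5′ to 3′ from base -120 to base 30 counted from the start, in lower case, with matches to the motifs searched in capitals. The windows are chr1:150099911-150100060 on the plus strand for Ptgs2, chr2:36230306-36230455 on the plus strand for Ptgs1, and chr2:30903268-30903417 on the minus strand for Ptges.
Ptgs2: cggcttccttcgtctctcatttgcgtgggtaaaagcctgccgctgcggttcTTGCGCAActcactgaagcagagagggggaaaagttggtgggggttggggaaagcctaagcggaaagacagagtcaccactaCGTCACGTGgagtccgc
Ptgs1: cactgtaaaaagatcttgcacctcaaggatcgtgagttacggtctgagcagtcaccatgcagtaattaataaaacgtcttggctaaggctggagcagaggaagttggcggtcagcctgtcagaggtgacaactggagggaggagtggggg
Ptges: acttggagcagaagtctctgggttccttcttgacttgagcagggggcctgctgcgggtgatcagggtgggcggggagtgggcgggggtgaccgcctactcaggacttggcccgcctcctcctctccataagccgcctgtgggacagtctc
The motifs were searched on both strands of the whole windows: the cyclic AMP response element half-site TGACG, the E-box CACGTG, the TATA box TATAAA, the AP-1 site TGANTCA, the FoxO site GTAAACA, the EGR site GCGNGGGCG, the Sp1 site GGGGCGG, the C/EBP site TTGCGNAA and the CCAAT box CCAAT. In the Ptgs2 window, the C/EBP letters lay at bases -69 to -62, which reads as a match on either strand. The half-site (bases 14 to 18, minus strand) and the E-box (bases 17 to 22) overlapped in it. Of the 32851 promoters in the RefSeq table, 0.798% held the C/EBP letters, 20.8% the half-site and 7.15% the E-box. The windows of Ptgs1 and Ptges held none of the 9 motifs. Among the other members, Ptges3 held the half-site and Sp1 letters, Ptges2 the E-box, Ptger4 Sp1 and CCAAT letters, Ptger2 the CCAAT box and Hpgd the TATA box. These matches describe letters only.

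All 9 genes are protein-coding in GENCODE M21 (mm10), and reads were assigned per gene rather than per transcript. Ptgs2 (ENSMUSG00000032487) lies at chr1:150100031-150108227 on the plus strand. Ptgs1 (ENSMUSG00000047250) lies at chr2:36230426-36252272 on the plus strand, and Ptges (ENSMUSG00000050737) at chr2:30889471-30929863 on the minus strand. The RefSeq promoter window of Ptges lies inside these bounds, so the 5′ end of the GENCODE gene, at 30929863, was not searched for motifs. The remaining members lie on chromosomes 2 (Ptges2, Ptgis), 10 (Ptges3), 14 (Ptger2), 15 (Ptger4) and 8 (Hpgd). Some exonic bases are shared with a gene on the opposite strand in Ptger2 (7.51% of its exonic bases), Ptgis (6.08%), Ptgs1 (3.81%) and Ptger4 (1.23%). Reads from those bases may belong to the partner gene, because whether counting used strand is not stated in these sources.

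The libraries held 13734425 to 22687173 counts. The labelled cell type carried its markers: Scx, Mkx, Tnmd, Fmod, Col1a1 and Col1a2 were detected in all 20 libraries, with Scx between 1484 and 5643 CPM (a count set against the scaled size of its library) and Tnmd between 144.6 and 281 CPM. The 13 macrophage markers summed to 271 to 342 CPM at 0 h, 408 to 1075 at 2 h and 201 to 540 in the other groups. The highest sum, 1075 CPM, was in 2 h replicate 2, and 2 h replicate 1 followed with 589 CPM. Of the 12 macrophage markers tested, 11 were called higher at 2 h (log2 0.10 to 2.21 over the 12). In the same library, 2 h replicate 2, the 6 Schwann cell markers (89.4 CPM), the 6 endothelial markers (48.1 CPM) and the 6 pericyte and smooth muscle markers (72.5 CPM) also had the highest sums of their lists. Endothelial markers summed to 38.2 to 41.3 CPM at 0 h and 7.50 to 12.2 CPM at 6 h. Of the 3 endothelial markers tested, 1 was called lower at 6 h and 0 higher (log2 -2.25 to 0.16 over the 3). The part of these markers in the results at 6 h was not tested. 2 h replicates 1 and 2 are therefore left out in an alternative given beside the results at 2 h. That alternative rests on 2 h replicates 3 and 4, and replicate 4 stood apart from the other 3, with chi-square values over degrees of freedom of 38.8, 52.5 and 41.5 against replicates 1, 2 and 3 and the highest mitochondrial share of the 20 libraries (1.75%). In bulk libraries, fewer cells of a type and less RNA per cell cannot be told apart.

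Before IGF1, the most abundant transcripts of the group per length were those of Ptgis and Ptges3, and those of Ptger2 were close to the detection limit. As CPM per kilobase of exon (RPKM), the 0 h levels were 28.0 ± 2.10 for Ptgis, 20.8 ± 0.877 for Ptges3, 9.95 ± 1.83 for Ptgs2, 6.94 ± 0.653 for Hpgd and 5.80 ± 0.660 for Ptgs1 (SD, n = 4). Lower RPKM levels were those of Ptges (3.35 ± 0.335), Ptges2 (2.78 ± 0.197), Ptger4 (1.201 ± 0.382) and Ptger2 (0.0938 ± 0.0153). In this order, the ranges of 4 libraries overlapped for the neighbours Ptgs2 and Hpgd, Hpgd and Ptgs1, and Ptges and Ptges2, and did not overlap for the others. At 1 h the RPKM of Ptgs2 was 22.2 ± 2.35, and its range of 19.05 to 24.5 overlapped that of Ptges3 (22.6 to 27.1). At 24 h the RPKM levels of Ptgs1 (7.76 ± 0.843), Ptgs2 (6.57 ± 0.514), Hpgd (6.42 ± 0.531) and Ptges (5.73 ± 0.422) formed a row in which each range overlapped that of the next gene. RPKM values use the exonic length of all annotated transcripts, so the order between genes depends on that length.

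**Figure D1:**
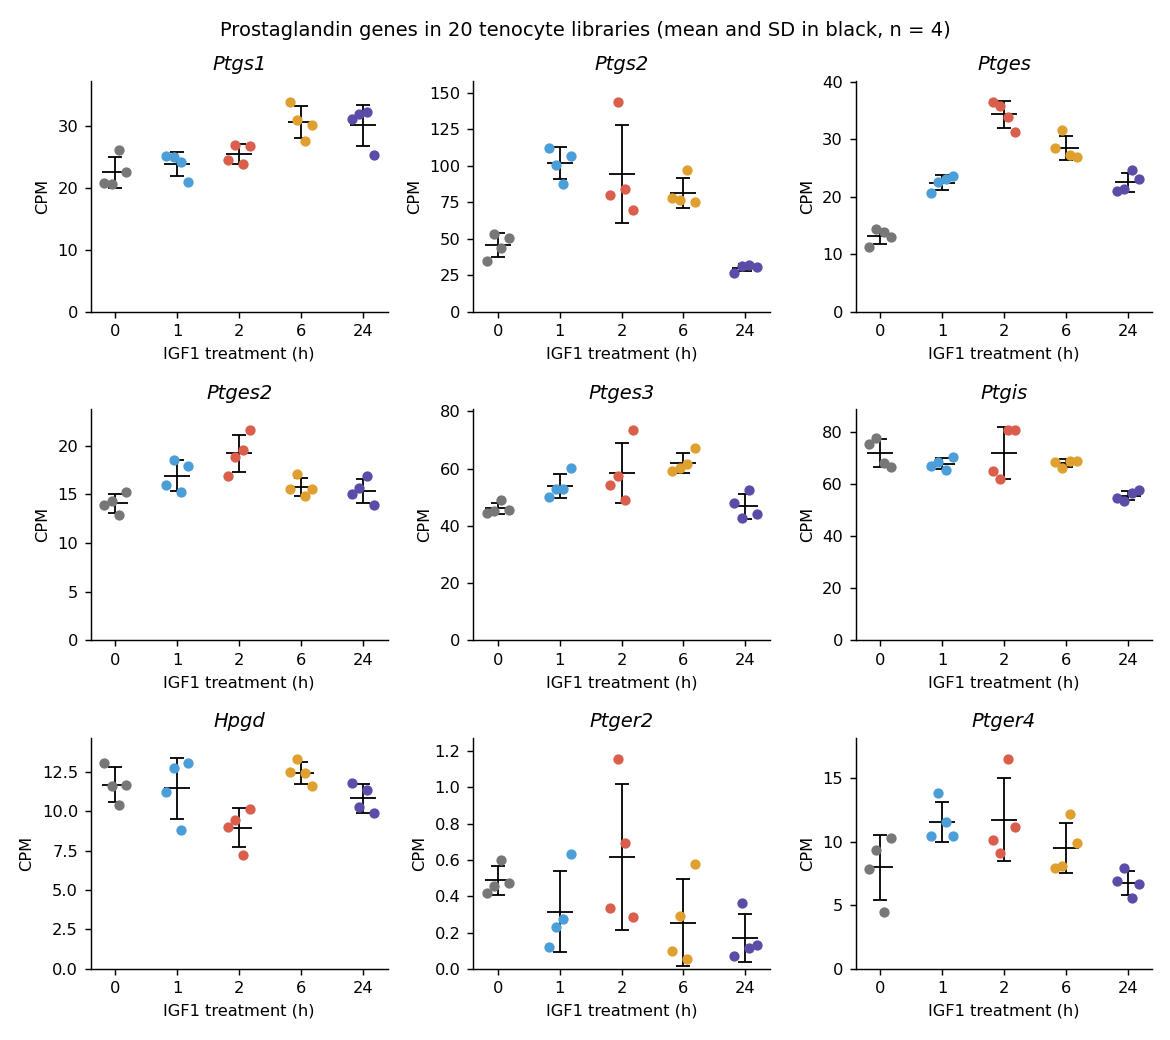
Level of each of the 9 prostaglandin genes in CPM on a linear axis from 0 against hours of IGF1 (evenly spaced categories), with 1 point per library and the mean and SD of 4 libraries in black. Ptgs2 is at 87.2 to 112 CPM at 1 h and 26.7 to 32.0 CPM at 24 h, against 34.6 to 53.4 CPM at 0 h, while Ptges is above its 0 h range at every later time.

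Ptgs2, the inducible cyclooxygenase, was the only member called both higher and lower against 0 h over the time course. Its transcripts rose 2.23-fold within 1 h, stayed above the untreated level to 6 h and lay below it at 24 h. In replicates 1 to 4, Ptgs2 was at 34.6, 53.4, 43.8 and 50.6 CPM at 0 h and at 112, 101, 87.2 and 107 CPM at 1 h. Every library at 1 h lay above every library at 0 h. The log2 fold change was 1.16 ± 0.19 (adjusted p = 5.25e-04). Here and below, ± after a log2 fold change is the SE, and p-values are from edgeR's quasi-likelihood test, adjusted over all 14420 genes.

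At 2 h Ptgs2 was at 80.3, 143.6, 83.8 and 69.4 CPM in replicates 1 to 4, and at 6 h at 77.6, 76.3, 97.0 and 74.9 CPM. 2 h replicate 2, which had the highest macrophage marker sum, also had the highest Ptgs2 level of the 20 libraries. All 8 libraries were still above the 0 h range. The log2 changes against 0 h were 1.05 ± 0.19 at 2 h (adjusted p = 3.67e-04) and 0.84 ± 0.19 at 6 h (adjusted p = 0.00195). Leaving out 2 h replicate 2 gave a 2 h change of 0.77, and leaving out replicate 1 as well gave 0.75 (adjusted p = 5.66e-04). It was 0.72 with the macrophage marker level of each library as a term (adjusted p = 0.0224).

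By 24 h Ptgs2 had dropped to 26.7, 31.2, 32.0 and 30.5 CPM, under all 4 libraries at 0 h. The change against 0 h was -0.60 ± 0.20 (adjusted p = 0.0355). In the fit of all times this call was near the threshold. It was lost when any 1 of 0 h replicates 2, 3 or 4 or of 24 h replicates 1 to 4 was left out (adjusted p up to 0.102). The log2 change was -0.70 to -0.51 over all 20 single omissions. The call held with the 0 h and 24 h libraries alone (-0.59, 3.15e-04) and without 2 h replicates 1 and 2 (-0.59, 0.00149). The drop from 6 h to 24 h was larger, at -1.43 ± 0.20 (2.70-fold lower, adjusted p = 2.21e-05), and was called in each of the 20 omissions (adjusted p at most 1.64e-04). The step from 1 h to 2 h was not called with all libraries (-0.11 ± 0.19, adjusted p = 0.744) and was called without 2 h replicate 2 (-0.39, adjusted p = 0.0421). From 2 h to 6 h Ptgs2 changed by -0.21 ± 0.19 (adjusted p = 0.443).

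Ptgs1, the steady cyclooxygenase, rose later and less. It was at 20.8, 20.7, 26.2 and 22.5 CPM at 0 h, and at 33.9, 31.0, 27.6 and 30.2 CPM at 6 h. The 6 h libraries lay above those of 0 h (log2 0.45 ± 0.093, adjusted p = 3.20e-04). At 24 h it was at 31.1, 32.0, 32.2 and 25.3 CPM (0.42 ± 0.093, adjusted p = 0.00111), with replicate 4 inside the 0 h range. Ptgs1 was not called at 1 h (0.085 ± 0.094, adjusted p = 0.671) or 2 h (0.18 ± 0.093, adjusted p = 0.131). It was called at 2 h without 0 h replicate 3 (0.26, adjusted p = 0.0379).

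Ptges, the microsomal prostaglandin E synthase that works with COX-2, was higher at each time after IGF1 and had the smallest adjusted p-values of the group. Its 4 libraries were at 11.4, 14.3, 13.9 and 13.02 CPM at 0 h and at 20.7, 22.5, 23.1 and 23.5 CPM at 1 h (log2 0.77 ± 0.088, adjusted p = 3.14e-07). At 2 h they reached 36.5, 35.8, 33.8 and 31.3 CPM, above every library of the other times but 6 h replicate 2 (31.5 CPM), which exceeded 2 h replicate 4. The 2 h change was 1.39 ± 0.087 (2.61-fold, adjusted p = 1.05e-12), and it was 1.30 without 2 h replicates 1 and 2.

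At 6 h Ptges was at 28.4, 31.5, 27.2 and 27.0 CPM (log2 1.118 ± 0.087, adjusted p = 6.57e-11) and at 24 h at 21.1, 21.3, 24.6 and 23.1 CPM (0.78 ± 0.089, adjusted p = 1.11e-07). The 24 h values overlapped those of 1 h and lay above all libraries at 0 h. The step from 1 h to 2 h was a rise of 0.61 ± 0.084 (adjusted p = 9.44e-06). It was followed by falls of -0.27 ± 0.083 to 6 h (adjusted p = 0.0163) and -0.34 ± 0.085 to 24 h (adjusted p = 0.00247). The fall from 2 h to 6 h was lost without 2 h replicate 1, 6 h replicate 3 or 6 h replicate 4 (adjusted p up to 0.0626), without 2 h replicates 1 and 2 (-0.18, 0.195) and with the macrophage marker term (-0.15, 0.322).

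The other E synthases changed by less. Ptges2, a membrane-associated synthase, was at 12.8 to 15.2 CPM at 0 h and at 16.9 to 21.6 CPM at 2 h, without overlap (log2 0.45 ± 0.095, adjusted p = 5.32e-04). Its changes at 1 h (0.26 ± 0.096, adjusted p = 0.0828), 6 h (0.16 ± 0.096, 0.193) and 24 h (0.13 ± 0.097, 0.370) did not pass the threshold. Ptges3, the p23 co-chaperone of Hsp90 that also acts as a cytosolic synthase, was at 44.5 to 48.95 CPM at 0 h. At 1 h it was at 0.23 ± 0.091 (adjusted p = 0.123), a change called without 2 h replicate 4 (0.21, 0.0322) and with the 0 h and 1 h libraries alone (0.22, 0.0280). It was higher at 2 h (0.34 ± 0.091, adjusted p = 0.00389) and 6 h (0.43 ± 0.091, adjusted p = 3.99e-04), and at 24 h it was at 0.022 ± 0.092 (adjusted p = 0.897). Its 2 h libraries were at 54.4, 57.4, 49.1 and 73.3 CPM, with replicate 4 apart, and without that replicate the 2 h change was 0.22 and still called. At 6 h the 4 libraries lay between 59.2 and 67.1 CPM, all above 0 h. From 6 h to 24 h Ptges3 fell by 0.41 ± 0.092 on the log2 scale (adjusted p = 9.11e-04).

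Ptgis, which makes prostacyclin, did not follow the E synthases. It was at 75.5, 77.6, 68.1 and 66.7 CPM at 0 h and at 54.8, 53.4, 56.7 and 57.6 CPM at 24 h, with no overlap. The 24 h change was -0.37 ± 0.075 (1.29-fold lower, adjusted p = 4.42e-04), and -0.29 ± 0.076 against 6 h (adjusted p = 0.00312). At 1, 2 and 6 h it was at -0.086 ± 0.075, -3e-04 ± 0.074 and -0.078 ± 0.075, none called (adjusted p = 0.566, 0.998 and 0.439). The 2 h libraries split, with replicates 1 and 2 at 64.9 and 62.0 CPM and replicates 3 and 4 at 80.6 CPM each. With replicates 1 and 2 left out, Ptgis was at 0.16 against 0 h (adjusted p = 0.0878), its rise from 1 h to 2 h was called (0.26, 0.0128), and so was its fall from 2 h to 6 h (-0.24, 0.0149).

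Hpgd, the enzyme that inactivates prostaglandin E2, was lower at 2 h and not called at the other times. It was at 13.1, 11.6, 10.4 and 11.7 CPM at 0 h and at 8.99, 9.46, 7.25 and 10.2 CPM at 2 h, and the highest value of 2 h lay just under the lowest of 0 h. The 2 h change was -0.38 ± 0.12 (adjusted p = 0.0161). Leaving out 0 h replicate 1 (-0.32, 0.0660) or 2 h replicate 3 (-0.29, 0.0702) ended the call, and so did fitting the 0 h and 2 h libraries alone (-0.38, 0.0513). Without 2 h replicates 1 and 2 it held (-0.43, 0.0393). By 6 h Hpgd was at 11.6 to 13.3 CPM, and the step from 2 h to 6 h was a rise of 0.47 ± 0.12 (adjusted p = 0.00513).

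Ptger4, the EP4 receptor, was at 7.83, 9.34, 4.48 and 10.3 CPM at 0 h, with replicate 3 below the rest. It was at 10.5, 13.8, 11.6 and 10.4 CPM at 1 h and at 10.1, 9.16, 16.5 and 11.2 CPM at 2 h. The 1 h libraries did not overlap those of 0 h, yet the change was not called (log2 0.53 ± 0.21, adjusted p = 0.118). It was called with no count filter (0.52, 0.00900). That fit gave Ptgs2 at 1 h an adjusted p of 3.69e-43 in place of 5.25e-04 at a similar change (1.14), so its p-values are not comparable. At 2 h the ranges of Ptger4 overlapped and its change was called (0.55 ± 0.21, adjusted p = 0.0425).

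The 2 h call of Ptger4 is weak. It was lost in 8 of the 20 single omissions (0 h replicates 1 and 3, 1 h replicate 3, 2 h replicates 3 and 4, 6 h replicate 4, 24 h replicates 1 and 4), with adjusted p up to 0.181. Without 2 h replicate 3 the 2 h change was 0.34 in place of 0.55. Without 0 h replicate 3 the changes at 1, 2 and 6 h were 0.33, 0.36 and 0.058, and that at 24 h was -0.44. Fitting the 0 h and 2 h libraries alone also ended it (0.55, 0.129). It held without 2 h replicates 1 and 2 (0.78, 0.0120). At 6 h and 24 h Ptger4 was at 0.25 ± 0.21 and -0.25 ± 0.22 (adjusted p = 0.379 and 0.455).

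Ptger2, the EP2 receptor, was measured from few reads: 9, 9, 11 and 10 counts at 0 h, and 1, 6, 2 and 2 counts at 24 h. At 24 h its CPM range, 0.0697 to 0.362, lay below that of 0 h, 0.417 to 0.601, and the change was -1.46 ± 0.67 (adjusted p = 0.112). The other groups held 2 to 10 counts (1 h), 5 to 23 (2 h) and 1 to 11 (6 h). No comparison of Ptger2 with 0 h was called, and its test over all times had an adjusted p of 0.0833. At this depth only large changes of Ptger2 could have been detected.

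**Figure D2:**
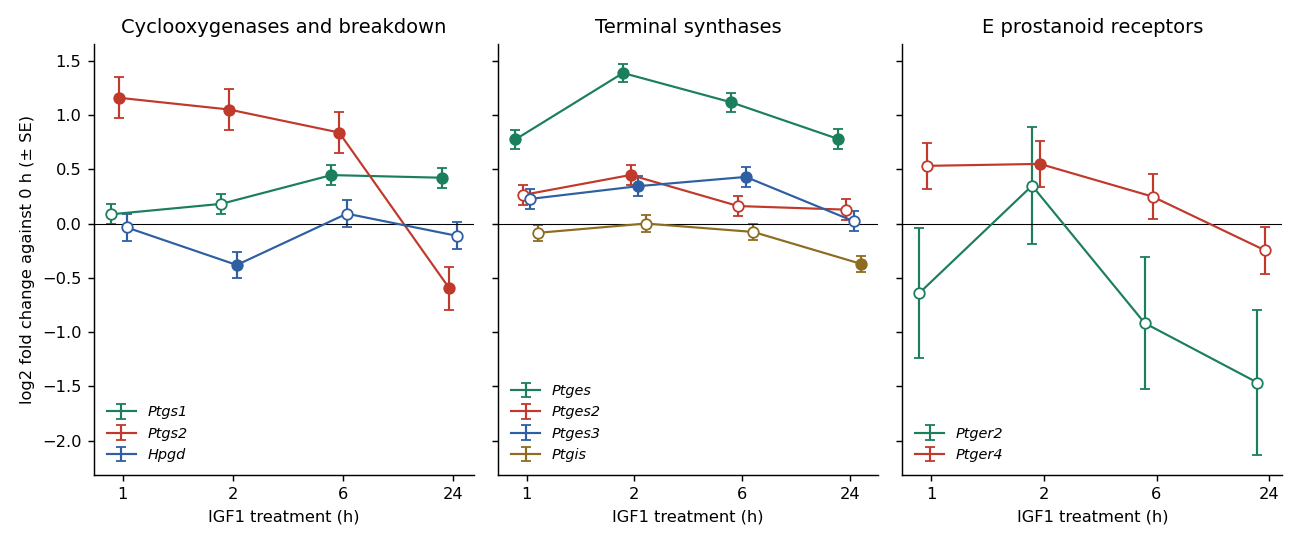
Log2 fold change against 0 h (bars are ± SE) at 1, 2, 6 and 24 h of IGF1 for the cyclooxygenases and Hpgd, the terminal synthases and the receptors. Filled points passed an adjusted p of 0.05 in edgeR's quasi-likelihood test and open points did not. Ptgs2 goes from 1.16 at 1 h to -0.60 at 24 h, Ptges peaks at 1.39 at 2 h, and the bars of Ptger2 are the widest.

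Counted together, 2 of the 9 members were called higher and 0 lower at 1 h (Ptgs2 and Ptges), where 10.6% of all tested genes were called, 6.75% higher and 3.88% lower. At 2 h 5 were higher (Ptgs2, Ptges, Ptges2, Ptges3, Ptger4) and 1 lower (Hpgd), beside 20.2% and 17.5% of all genes (37.7% together). When the 0 h and 2 h libraries were fitted alone, 8 members were tested and the counts were 4 and 0. In that fit 3646 of all genes were called, against 5443 with all libraries. At 6 h 4 were higher (Ptgs1, Ptgs2, Ptges, Ptges3) and 0 lower, beside 20.6% and 19.6% (40.2% together). At 24 h 2 were higher (Ptgs1, Ptges) and 2 lower (Ptgs2, Ptgis), beside 12.7% and 13.2% (26.0% together). The members' median log2 changes were 0.23, 0.35, 0.25 and -0.11 at 1, 2, 6 and 24 h, and those of all tested genes lay between -0.0061 and 0.0032. The libraries did not overlap with 0 h in 5, 5, 4 and 4 members for 1, 2, 6 and 24 h, and over all tested genes in 17.9%, 29.6%, 43.3% and 31.4%. The 4 comparisons share the 0 h libraries, so their counts are not independent.

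In the step from 6 h to 24 h, 4 members were called lower (Ptgs2, Ptges, Ptges3, Ptgis) and 0 higher. Of all genes, 35.8% were called in that step, 18.2% lower and 17.6% higher. In 5 members the 6 h and 24 h libraries did not overlap, as in 41.2% of all genes. The fifth was Ptger4 (-0.50 ± 0.22, adjusted p = 0.0823). Its step was called with the 6 h and 24 h libraries alone (-0.49, 0.00664), with the macrophage marker term (-0.57, 0.0355) and without 0 h replicate 3 (-0.49, 0.0295) or 2 h replicate 3 (-0.49, 0.0454). The fit with no count filter also called it (-0.51, 0.00491), but the p-values of that fit are not comparable. From 1 h to 2 h 1 member was higher (Ptges) and 0 lower, beside 7.50% and 8.84% of all genes (16.3% together), and the libraries of 1 member did not overlap (15.3% of all genes). From 2 h to 6 h 2 members were higher (Ptgs1, Hpgd) and 2 lower (Ptges, Ptges2), beside 13.6% and 13.7% of all genes (27.4% together), and the libraries of 2 members did not overlap (24.0%). This last count is the least stable. It was 2 higher and 0 lower with no count filter, a fit whose p-values are not comparable. With the macrophage marker term it was 1 higher and 0 lower. The calls over all genes for this step were 3944 in the main fit, 3806 with no count filter and 2657 with the term. Over all times, 8 of the 9 members changed, the exception being Ptger2, and 63.7% of all tested genes changed too.

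Ratios of counts of 2 genes within a library do not depend on how libraries are scaled. Ptgs2 over Ptgs1 shows the balance of the cyclooxygenase transcripts. Its log2 value was 0.74, 1.36, 0.74 and 1.17 at 0 h and 2.16, 2.01, 1.85 and 2.34 at 1 h. At 24 h it was -0.22, -0.033, -0.010 and 0.27, below all libraries at 0 h. Against 0 h it was 1.09 higher at 1 h and 0.82 higher at 2 h, and at 24 h it differed by -1.001. Each of these differences had p = 0.0286, the smallest that an exact permutation test of 4 against 4 can give, and an adjusted p of 0.0490 over 12 tests. At 6 h it was 0.40 higher (exact permutation p = 0.171, adjusted p = 0.187), and the libraries overlapped. Per length, Ptgs2 made up 62.8% ± 5.04 of the cyclooxygenase transcripts before IGF1 and 78.2% ± 2.48 after 1 h of it (SD, n = 4). This share was 74.7% ± 5.47 after 2 h and 69.1% ± 3.96 after 6 h. After 24 h it was 45.9% ± 3.46.

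Ptges over Hpgd sets synthesis against breakdown of prostaglandin E2. Its log2 value was -0.20, 0.31, 0.42 and 0.15 at 0 h and 2.02, 1.92, 2.22 and 1.62 at 2 h. The mean difference from 0 h was 0.82 for 1 h and 1.77 for 2 h (3.42-fold). For 6 h and 24 h it was 1.02 and 0.89. At all 4 times the libraries did not overlap with 0 h (exact permutation p = 0.0286 each, adjusted p = 0.0490). These adjusted values lie close to the threshold and can move together, because each depends on how many of the 12 tests reach the smallest p. In single omissions no difference of either ratio changed sign, and that of Ptges over Hpgd at 2 h stayed between 1.65 and 1.88. Yet without 0 h replicate 1, 3 or 4 every call of both ratios was lost (adjusted p 0.0571 to 0.0980). That of Ptgs2 over Ptgs1 at 2 h was also lost without 0 h replicate 2 or 2 h replicate 2 or 3, and that of Ptges over Hpgd at 2 h without 2 h replicate 2 or 3. Ptger4 over Ptger2, the balance of the EP4 and EP2 transcripts, was at 3.91 ± 0.719 at 0 h (SD, n = 4). It differed from 0 h by 1.37, 0.45, 1.57 and 1.35 at 1, 2, 6 and 24 h, with overlapping libraries and exact permutation p-values of 0.114, 0.429, 0.114 and 0.0571 (adjusted p at least 0.0857). Ptger2 gave 1 to 23 counts in each of these libraries.

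**Figure D3:**
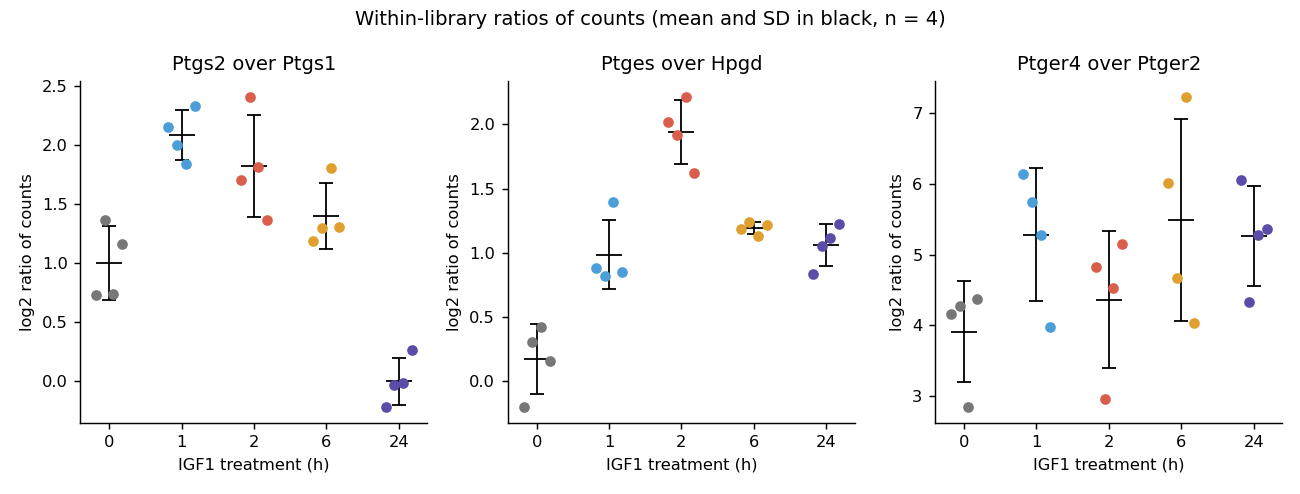
Log2 ratio of counts of 2 genes within each library (1 point per library, mean and SD of 4 in black) against hours of IGF1. Ptgs2 over Ptgs1 averages 1.002 at 0 h, 2.09 at 1 h and close to 0 at 24 h, while Ptges over Hpgd averages 0.17 at 0 h and 1.94 at 2 h and is at 1.06 at 24 h.

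The wider pathway was read from a list of 55 other genes of prostanoid and eicosanoid metabolism, transport and reception, of which 52 were in the table and 35 were tested. At 1 h 1 was higher and 0 lower, at 2 h 11 and 3, at 6 h 8 and 4, and at 24 h 6 and 4, where 10.6%, 37.7%, 40.2% and 26.0% of all tested genes were called. From 2 h on, the listed genes called in both directions together were thus near the share of all genes. By direction, 20.2%, 20.6% and 12.7% of all genes were called higher at 2, 6 and 24 h, and 17.5%, 19.6% and 13.2% lower. At 2 h the listed genes called were mostly higher (11 and 3). The median log2 changes of the listed genes were 0.036, 0.19, 0.077 and 0.075 at 1, 2, 6 and 24 h. Upstream of the cyclooxygenases, calls went both ways. Pla2g4a, the cytosolic phospholipase A2 that releases arachidonic acid, was lower at 2 h (-0.33 ± 0.077, adjusted p = 0.00125) and at 24 h (-0.33 ± 0.078, adjusted p = 0.00182). It was at 66.0 to 83.7 CPM at 0 h and 57.1 to 63.2 CPM at 24 h. Pla2g6, the calcium-independent phospholipase, was at -0.48 ± 0.12 at 2 h (adjusted p = 0.00348), a call lost without 2 h replicates 1 and 2 (-0.38, 0.0509). At 6 h Pla2g6 was also lower (-0.36 ± 0.12, adjusted p = 0.0229), a call lost without 6 h replicate 2 (-0.33, 0.0592). In the other direction, and outside the naming rule, the lysosomal phospholipase gene Pla2g15 was higher at 2 h and 6 h (0.29 ± 0.078 and 0.35 ± 0.077), as was the phospholipase-activating protein gene Plaa (0.19 ± 0.053 and 0.35 ± 0.053). Plaa went from 98.4 to 108.5 CPM at 0 h to 129.1 to 132.8 CPM at 6 h. The secreted phospholipases Pla2g2e at 2 h (0.57 ± 0.21) and Pla2g5 at 24 h (0.32 ± 0.12) were also called higher. These 4 genes were chosen after their values were seen. Mgll and Faah, hydrolases that free arachidonic acid from endocannabinoids, fell at 6 h and 24 h. Mgll went from 35.5 to 42.5 CPM at 0 h to 16.7 to 21.1 CPM at 24 h (-0.96 ± 0.092, adjusted p = 4.66e-09). Faah, with 18 to 88 counts a library in these groups, was at -1.12 ± 0.26 at 24 h (adjusted p = 0.00183).

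Among the receptors and transporters of that list, Ptgir, the prostacyclin receptor, was the gene called at 1 h. It was at 5.75, 4.77, 5.46 and 7.10 CPM at 0 h, at 10.7, 11.8, 7.61 and 9.43 CPM at 1 h and at 10.9, 8.55, 12.03 and 13.8 CPM at 2 h. Both times lay above the 0 h range (0.77 ± 0.16, adjusted p = 0.00112, and 0.97 ± 0.16, adjusted p = 1.77e-05), and at 6 h Ptgir was back at 0.094 ± 0.16 (adjusted p = 0.681). Tbxa2r, the thromboxane receptor, was lower at 2 h (-0.67 ± 0.17, adjusted p = 0.00285) and 6 h (-0.90 ± 0.17, adjusted p = 1.25e-04), and the 2 h call was lost without 2 h replicates 1 and 2 (-0.42, 0.0947). Slco2a1, which carries prostaglandins into cells for breakdown, was higher at 2 h (0.36 ± 0.082) and 6 h (0.36 ± 0.082) and lower at 24 h (-0.25 ± 0.083, adjusted p = 0.0268). The 24 h call of Slco2a1 was lost without any 1 of 0 h replicates 2 and 4 and 24 h replicates 2, 3 and 4. Ptgfrn, a regulator of the prostaglandin F receptor, and Ptgr1, a reductase of later breakdown steps, were higher at 24 h (0.58 ± 0.092 and 0.54 ± 0.084).

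Some rises at 2 h in the wider list went together with the macrophage markers. Hpgds, the hematopoietic prostaglandin D synthase, was at 7.80, 13.3, 6.05 and 4.48 CPM in 2 h replicates 1 to 4, and at 2.32 to 4.48 CPM at 0 h (1.44 ± 0.39, adjusted p = 0.00785). Tbxas1, the thromboxane synthase, was at 2.25, 7.39, 1.27 and 1.03 CPM at 2 h (1.64 ± 0.49, adjusted p = 0.0103). In both genes 2 h replicate 2 was highest, as in the macrophage marker sum. Without 2 h replicates 1 and 2, Hpgds was at 0.84 (adjusted p = 0.145) and Tbxas1 at 0.26 (0.718). Alox5ap, the activator of 5-lipoxygenase, was at 0.94 (0.168) in that fit against 1.14 ± 0.44 with all libraries (adjusted p = 0.0416). Akr1c18, a hydroxysteroid dehydrogenase, was at -0.057 (0.968) against 1.92 ± 0.71 (adjusted p = 0.0372), and 2 h replicate 3 held 0 counts of it. Fits with the macrophage level gave 0.36 (Hpgds), 0.024 (Tbxas1), 0.21 (Alox5ap) and 0.12 (Akr1c18), none called, and also ended the 2 h calls of Tbxa2r (-0.29) and Pla2g6 (-0.17). The calls of Tbxas1, Alox5ap and Akr1c18 were lost without 2 h replicate 2 alone (0.67, 0.80 and 0.97). That of Alox5ap also needed each of 0 h replicates 2, 3 and 4, 2 h replicate 3 and 6 h replicate 1, and that of Akr1c18 each 0 h replicate and 2 h replicate 1. The part of macrophage RNA in these rises was not tested further. A marker level that is itself highest at 2 h takes part of the 2 h change with it. In the same fit the 2 h calls of Ptgs2 (0.72), Ptges (1.27), Ptges2 (0.47), Ptges3 (0.34), Ptger4 (0.82) and Hpgd (-0.44) all held.

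**Figure D4:**
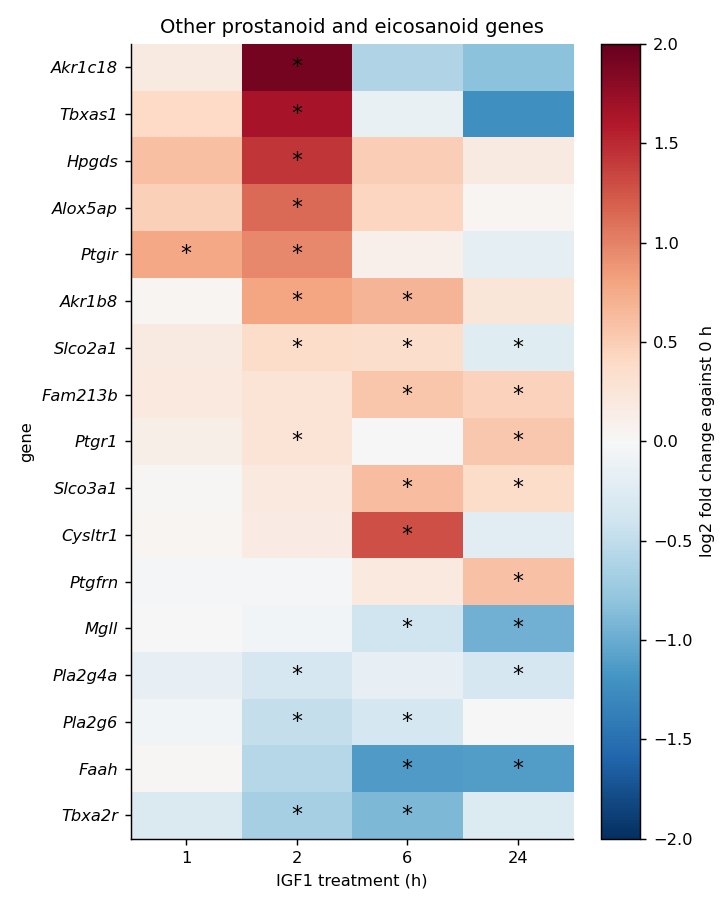
Log2 fold change against 0 h (colour) at 1, 2, 6 and 24 h of IGF1 for the 17 genes of the wider prostanoid and eicosanoid list that the naming rule took, with an asterisk where the adjusted p of edgeR's quasi-likelihood test was under 0.05. Ptgir is the gene marked at 1 h, and Akr1c18, Tbxas1, Hpgds and Alox5ap are marked at 2 h alone.

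**Figure D5:**
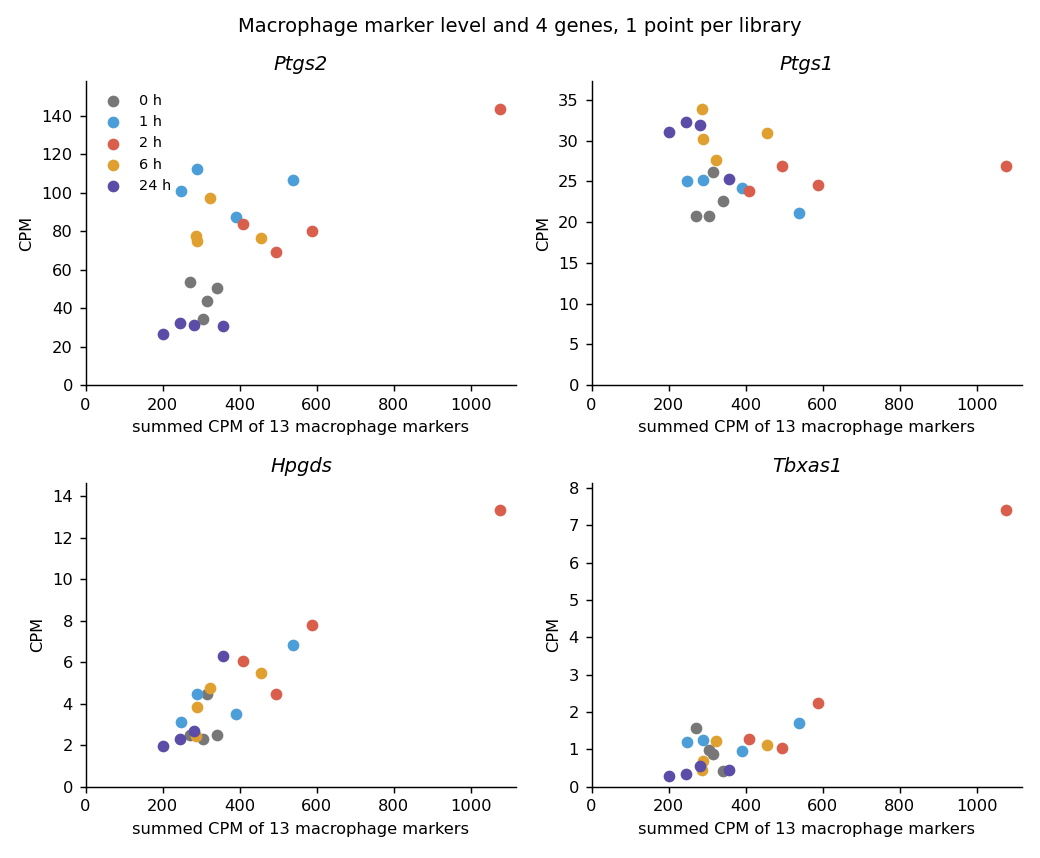
Level in CPM of Ptgs2, Ptgs1, Hpgds and Tbxas1 against the summed CPM of 13 macrophage markers, 1 point per library and both axes from 0. 2 h replicate 2, at a marker sum of 1075 CPM, has the highest Ptgs2, Hpgds and Tbxas1, while the 1 h libraries have Ptgs2 at 87.2 to 112 CPM at marker sums of 248 to 540 CPM.

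AU-rich element binding proteins control the lifetime of unstable transcripts such as that of Ptgs2. Of 11 listed genes, all tested, 5 were higher and 1 lower at 1 h, 5 and 2 at 2 h, 5 and 2 at 6 h, and 2 and 1 at 24 h, beside the same 10.6%, 37.7%, 40.2% and 26.0% of all genes called. At 24 h the 3 called of 11 were near that share. The median log2 changes of the list were 0.18, 0.11, 0.15 and 0.0074. Zfp36l2, a member of the family that destabilises such transcripts, rose most at 1 h (1.94 ± 0.080, adjusted p = 5.64e-16) and was still higher at 24 h (0.41 ± 0.079). Its relatives Zfp36 (0.67 ± 0.087) and Zfp36l1 (0.59 ± 0.11) were also higher at 1 h, as was Elavl1, the stabilising protein HuR (0.31 ± 0.062). Zfp36l1 was lower at 6 h (-0.31 ± 0.11, adjusted p = 0.0272). Hnrnpd, the protein AUF1, rose to 0.74 ± 0.075 at 6 h. Celf2 was lower at 2, 6 and 24 h (-0.29 ± 0.075, -0.57 ± 0.076 and -0.72 ± 0.076), and Tia1, a translational repressor, was lower at 1 and 2 h (-0.30 ± 0.073 and -0.59 ± 0.074).

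The genes whose time course was nearest to that of a member were found among 12758 other named genes, by the root mean square difference of the fitted log2 changes over the 4 times. For Ptgs2 they included Ccdc38 (0.175 log2 units) and Noct (0.230). Noct, a circadian gene of RNA and nucleotide metabolism, averaged 18.3 CPM at 0 h, 40.9 CPM at 2 h and 11.3 CPM at 24 h, and Ccdc38 stayed under 0.6 CPM. For Ptges they were Snord83b (0.0593), Wnt2b (0.107) and Kcnh2 (0.115), and the latter pair were at most at 2.18 CPM. Ptger4 was nearest to the phosphate transporter Slc20a1 (0.0161). The nearest gene of Ptgs2 lay farther from it than the nearest gene of any other member called at some time lay from that member. This distance is not scaled to the size of a member's changes, which were large in Ptgs2. Ptges, also with large changes, came next (0.0593). Likeness here is of group means that share the 0 h libraries.

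The authors' deposited table of edgeR results holds 12207 genes, among them 8 of the 9 members. In the 56 pairs of a member and a comparison, the log2 fold changes of the authors' deposited table differed from those given here by at most 0.0143. No pair lay on another side of the threshold of 0.05.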

How the data were processed

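Messenger RNA of 20 tenocyte libraries, 4 at each of 0, 1, 2, 6 and 24 h of IGF1, was measured by RNA sequencing. The authors deposited raw read counts per gene. FastQC, STAR, edgeR and the build mm10 are named, without versions, in the submitters' processing notes. For the counting tool, annotation and strand setting nothing is given. The authors' deposited edgeR table of log2 fold changes and p-values was used for 1 comparison.

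The deposited counts went unchanged into edgeR 4.0.16 (R 4.3.3): filterByExpr, TMM scaling, robust dispersions and 1 quasi-likelihood fit of all 20 libraries without covariates. A 2-sided p under 0.05 after Benjamini-Hochberg adjustment made a call. CPM use the TMM-scaled library sizes, and RPKM the exonic length in GENCODE M21. The SE is the log2 change divided by the square root of F. Ratios, with 0.5 added to each count, were compared by exact 2-sided permutation tests. The steps were tested on simulated data.

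The members, lists, markers, motifs and tests were chosen with earlier results of these data known. Beside the members, the text names the up to 4 called genes of largest fold per direction, time and list, those of counts of 5 or fewer, 6 tendon genes and the 3 most alike genes of a member, leaving out some, 1 of which is not reported here. 0 h replicate 2 carries the description of 0 h replicate 1, and their counts gave a chi-square over degrees of freedom of 8.60, where replicate pairs ranged from 2.88 to 52.5, so both were kept. Alternatives were RLE scaling, other count filters, DESeq2 1.42.0, a block on replicate number, a macrophage marker term, fitting 8 libraries alone, and leaving out libraries.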

Additional observations from a re-analysis of the deposited data

Results flagged for a closer look

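In 5 of 60 groups of 4 libraries, 1 library lay far from the other 3 by Dixon's test at its 95% level, which flags about 1 group in 20 by chance. Ptgs2 in 6 h replicate 3 was at 96.96 CPM, with the others at 74.9 to 77.6. Ptgs1 in 24 h replicate 4 was at 25.3 CPM, with the others at 31.1 to 32.2. Ptgis in 6 h replicate 2 was at 66.07 CPM, with the others at 68.6 to 69.1. The log2 ratio of Ptger4 over Ptger2 was 2.84 in 0 h replicate 3, with the others at 4.16 to 4.37. That of Ptges over Hpgd was 1.39 in 1 h replicate 3, with the others at 0.82 to 0.88.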

How the results depend on the processing

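Of 1749 alternative values for the 63 results of the members, 1668 kept direction and call, 42 lost the call, 16 gained it and 23 changed sign. The count of all genes called at 2 h against 0 h was 5443, and 3427 with the macrophage marker term. From 1 h to 2 h it was 2357, which the term reduced to 1277 and fitting those 8 libraries alone to 776. From 2 h to 6 h it was 3944, and 2569 when those 8 libraries were fitted alone. The cause was not tested.

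Same-numbered libraries did not deviate together (40 pairs, r -0.17 to 0.126, 1 over 0.1, and 3 of 20 libraries closest to their own number). Pairing by number was thus not seen, but whether same-numbered libraries share a mouse or culture is not known. With the numbers as a replicate block, the differences of Ptgs2 over Ptgs1 were 1.0856 (1 h), 0.8243 (2 h) and -1.0005 (24 h), and those of Ptges over Hpgd 0.8157, 1.772, 1.0225 and 0.8866 at 1, 2, 6 and 24 h. Their adjusted p of 0.1875 follows from 4 pairs, which cannot reach the threshold. The block also ended the 2 h call of Ptger4 (0.55, adjusted p = 0.0648).

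With the macrophage marker term, changes without a call turned sign in Ptgs2 from 2 h to 6 h (0.11), Ptgis at 2 h (0.1087) and Ptger2 at 2 h (-0.5509). Without 2 h replicates 1 and 2 this held for the same step of Ptgs2 (0.0952), Ptgis at 2 h (0.1596) and Akr1c18 at 2 h (-0.0571, called with all libraries).

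Leaving out 1 library at a time, Ptgs2 over Ptgs1 ranged from 0.9967 to 1.2064 (1 h), 0.6283 to 0.9769 (2 h), 0.2658 to 0.5228 (6 h) and -1.0895 to -0.8798 (24 h). Ptges over Hpgd ranged from 0.6802 to 0.9001, 1.6477 to 1.8796, 0.8982 to 1.1069 and 0.7623 to 0.971. Of 8 omissions each, the call was lost in 6 for Ptgs2 over Ptgs1 at 2 h (adjusted p up to 0.098), in 5 for Ptges over Hpgd at 2 h and in 3 for each other called ratio, and it was gained in 1 for Ptgs2 over Ptgs1 at 6 h and in 1 for Ptger4 over Ptger2 at each of 1, 6 and 24 h. Ptger4 over Ptger2 ranged from 1.0151 to 1.8074, 0.0944 to 0.9202, 0.9913 to 2.0592 and 0.992 to 1.6565. Uncalled changes that crossed 0 were, at 1 h, Hpgd (-0.1029 to 0.0643), at 2 h, Ptgis (-0.0629 to 0.066) and Ptger2 (-0.1575 to 0.5721), and at 24 h, Ptges3 (-0.0331 to 0.0664). Between 1 h and 2 h these were Ptgs2 (-0.3853 to 0.024) and Ptger4 (-0.175 to 0.1207), and between 2 h and 6 h Ptgs2 (-0.3297 to 0.0651). Between 6 h and 24 h they were Ptgs1 (-0.0689 to 0.0526), Ptges2 (-0.0783 to 0.0125) and Ptger2 (-1.2138 to 0.2416). Depth limits Ptger2, with 1 to 23 counts a library.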
